A study of Homo sapiens with 16 samples.

Results

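EZH1 knockdown was compared with its control in HCT116 cells, a widely used line from a human colorectal carcinoma. The comparison used 4 of the 16 samples of the series, all of them RNA-seq libraries: siEZH1 with PBS, siEZH1 with TNF, NC with PBS and NC with TNF. They were chosen by the transfection and treatment in their labels, and each siEZH1 library was set against the NC library of the same treatment. The siEZH1 cells received a small interfering RNA against EZH1, PBS is phosphate-buffered saline, and TNF is tumour necrosis factor, an inflammatory cytokine. The NC libraries carry no transfection entry in the labels and served as the control. The meaning of NC, the siRNA sequences and the dose and duration of TNF were not given in the sources used here. Each condition had 1 library, and no label tells if the PBS and TNF libraries shared a transfection. RNA was enriched for poly(A) tails in every library, and all cells were of the same line and medium. The series holds 6 RNA-seq libraries in all, and its other 10 samples, from chromatin, were not analysed here.

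EZH1 is a histone H3 lysine 27 methyltransferase and can take the place of its paralogue EZH2 in Polycomb repressive complex 2 (PRC2), next to SUZ12, EED and the histone-binding proteins RBBP4 and RBBP7. PRC2 is best known for placing the H3K27me3 mark on silent developmental genes such as the HOX clusters, and EZH1 has also been found at transcribed genes. By its title, the study concerned EZH1 and SUZ12 as positive regulators of the NF-kB target genes, which TNF switches on, with UXT as their partner.

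Levels are FPKM, fragments scaled to transcript length and library size, and a difference is siEZH1 minus NC on the log2(FPKM + 1) scale, which understates changes of weakly expressed genes. Symbols with identical values were merged into 1 locus, and 11817 loci whose mean over the 4 libraries was 1 FPKM or more were compared. Of these, 10973 hold a protein-coding gene. Median-of-ratios size factors of the 4 libraries lay between 1.00 and 1.02, 12.4% to 14.5% of the FPKM sum fell to the 10 most abundant loci, and the median difference over all loci was 0.01 under PBS and 0.03 under TNF. Read numbers are not given; from the steps of the lowest values, the NC and siEZH1 TNF libraries had 0.719 and 0.720 of the depth of NC PBS, and siEZH1 PBS had 1.02. The epithelial identity of the line was visible in KRT8 (709 to 1074 FPKM), KRT18 (271 to 368 FPKM), EPCAM (102 to 154 FPKM) and CDH1 (24.7 to 26.7 FPKM), while VIL1 was at or near 0. Of 14 fibroblast, leukocyte, endothelial and erythroid markers, 8 to 10 were at 0 in each library. Their summed level was 7.59 and 10.7 FPKM in NC and 6.58 and 8.61 FPKM in siEZH1, mostly from COL1A1, and DCN, LUM, PTPRC, CD3E, HBB and HBA1 were at 0 in all 4.

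The targeted gene was lower in both siEZH1 libraries. EZH1 measured 5.45 FPKM in NC PBS and 5.12 FPKM in NC TNF, against 4.05 FPKM in siEZH1 PBS and 4.14 FPKM in siEZH1 TNF. The siEZH1 level was 0.742 of NC under PBS and 0.809 of NC under TNF. The groups did not overlap, but 28.3% of all loci likewise had both siEZH1 libraries below both NC libraries. The difference of -0.30 ± 0.07 (SD over the 2 pairs) did not pass limma over all 6 RNA-seq libraries (standard error 0.19, Benjamini-Hochberg adjusted p = 0.643). In this fit, treatment and transfection are additive and the siUXT libraries also enter the estimate of the spread, with 2 residual degrees of freedom. With 1 library per condition, that spread is the departure from additive effects, not variation between replicates. Fitted on the 4 libraries alone, with 1 residual degree of freedom, limma gave EZH1 an adjusted p of 0.108.

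The rest of PRC2 was mostly higher in siEZH1. Of 13 PRC2 loci tested, 9 were higher and 3 lower in both pairs, where 40.9% of all loci were higher and 37.6% lower in both. The list median was 0.25 under PBS and 0.31 under TNF, or 0.18 and 0.19 when centred by gene span. SUZ12, the scaffold subunit, measured 16.4 and 13.4 FPKM in NC PBS and TNF and 25.9 and 20.5 FPKM in the matching siEZH1 libraries. EED, which reads H3K27me3, measured 10.99 and 9.60 FPKM in NC and 16.3 and 12.6 FPKM in siEZH1. Both genes were thus above both NC libraries in both siEZH1 libraries, as were RBBP4, RBBP7 and JARID2, where 31.2% of all loci were. EZH2, the paralogue, measured 26.3 and 21.7 FPKM in NC and 31.5 and 27.1 FPKM in siEZH1. That is 1.20 times NC under PBS and 1.25 times NC under TNF. The 3 loci lower in both pairs were EZH1 itself and the accessory subunits PHF1 and PHF19, the last named after its values were seen. PHF1 measured 1.89 and 2.71 FPKM in NC and 1.24 and 1.48 FPKM in siEZH1. None of these loci passed limma over 6 libraries (Benjamini-Hochberg adjusted p = 0.674 for SUZ12, 0.682 for EED and 0.675 for EZH2). The siUXT PBS library, which enters that fit, had SUZ12 at 3.92 FPKM and EED at 4.73 FPKM, below the NC and siEZH1 libraries.

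Among PRC1 subunits, PR-DUB subunits and H3K27 demethylases, 8 of 24 loci were higher and 11 lower in both pairs, with medians of -0.10 and -0.05. Over all loci, 40.9% were higher and 37.6% lower in both. RNF2, the ubiquitin ligase of PRC1, measured 8.02 and 6.82 FPKM in NC and 12.6 and 9.66 FPKM in siEZH1. PCGF6, a subunit of a variant PRC1, was also higher, at 11.2 and 9.10 FPKM in NC and 16.3 and 12.9 FPKM in siEZH1. The chromodomain subunits CBX6 and CBX7 lay on the other side, with differences of -0.55 and -0.40 for CBX6 and -0.29 and -0.44 for CBX7 under PBS and TNF.

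Many of the genes that PRC2 commonly silences were weak in both groups. Of 39 HOX genes, 17 had a mean under 1 FPKM in NC, and 1 of these, HOXA13, reached 1 FPKM in both siEZH1 libraries. In the reverse direction, 17 had a mean under 1 FPKM in siEZH1 and 0 of them reached 1 FPKM in both NC libraries. Of 64 other developmental regulators often marked by H3K27me3, 44 had a mean under 1 FPKM in NC and 44 in siEZH1, and 0 reached 1 FPKM in both libraries of the other group. No gene of these lists crossed from under 0.5 FPKM in both libraries of a group to at least 1 FPKM in both of the other. Listed at 0 in all 4 libraries were 3 HOX genes and 17 of the other regulators. Of the 19 HOX loci tested, 6 were higher and 5 lower in both pairs, where 40.9% and 37.6% of all loci were. Their medians were -0.15 under PBS and 0.06 under TNF, or 0.09 and 0.20 when centred by gene span. HOXA13 was at 1.06 and 0.490 FPKM in NC and 1.97 and 1.26 FPKM in siEZH1, and HOXC9 at 4.63 and 5.35 FPKM in NC and 2.99 and 3.57 FPKM in siEZH1. Among the 20 other expressed regulators, 1 was at least 1.5-fold lower in both pairs, where 2.37% of all loci were: the hindlimb factor PITX1. Its level was 7.72 and 15.1 FPKM in NC and 4.53 and 9.47 FPKM in siEZH1. TBX3, a T-box repressor, was higher in both pairs at 8.17 and 7.15 FPKM in NC and 11.1 and 11.2 FPKM in siEZH1. The medians of these 20 loci were -0.01 and -0.09, or 0.11 and 0.01 when centred by gene span.

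Across all loci, differences of at least 1.5-fold in both pairs lay mostly on the lower side. Of 11817 loci, 280 (2.37%) were at least 1.5-fold lower in siEZH1 under both treatments and 55 (0.465%) at least 1.5-fold higher. Of these, 266 of the 280 and 53 of the 55 had groups that did not overlap. The rule used the same 4 values, so this separation largely follows from it and is no further support. Over all loci, 28.3% had both siEZH1 libraries below both NC libraries and 31.2% had them above. Differences of any size were balanced, with 4832 loci (40.9%) higher and 4444 (37.6%) lower in both pairs. Limma over 6 libraries called 0 loci higher and 2 lower (0.0169%) at a Benjamini-Hochberg adjusted p of 0.05, and 201 higher and 771 lower at an unadjusted p of 0.05. Those 2 with an adjusted call, SNORA31 and SNORD15A, encode small nucleolar RNAs and were listed at 0 in both siEZH1 and both siUXT libraries. They passed the filter on mean FPKM through the NC libraries alone. Fitted on the 4 libraries alone, limma called 1604 loci higher (13.6%) and 1882 lower (15.9%), among them all 55 and all 280. Its 1 residual degree of freedom is the disagreement of the 2 pairs, and the pair rule chose loci whose pairs agree. The calls of all 55 and all 280 are therefore no further support. Leaving out either siUXT library gave in effect this 4-library fit again, since the remaining siUXT library is fitted exactly and adds no residual. The count of loci that pass therefore depended on whether both siUXT libraries entered the fit. At the edge of the 1.5-fold rule, HNRNPA1 lay just inside with differences of 0.59 and 0.61 and ZW10 just outside with 0.58 and 0.82. On the lower side WTIP lay just inside with -0.59 and -0.67 and HYAL2 just outside with -0.58 and -0.68.

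**Figure D1:**
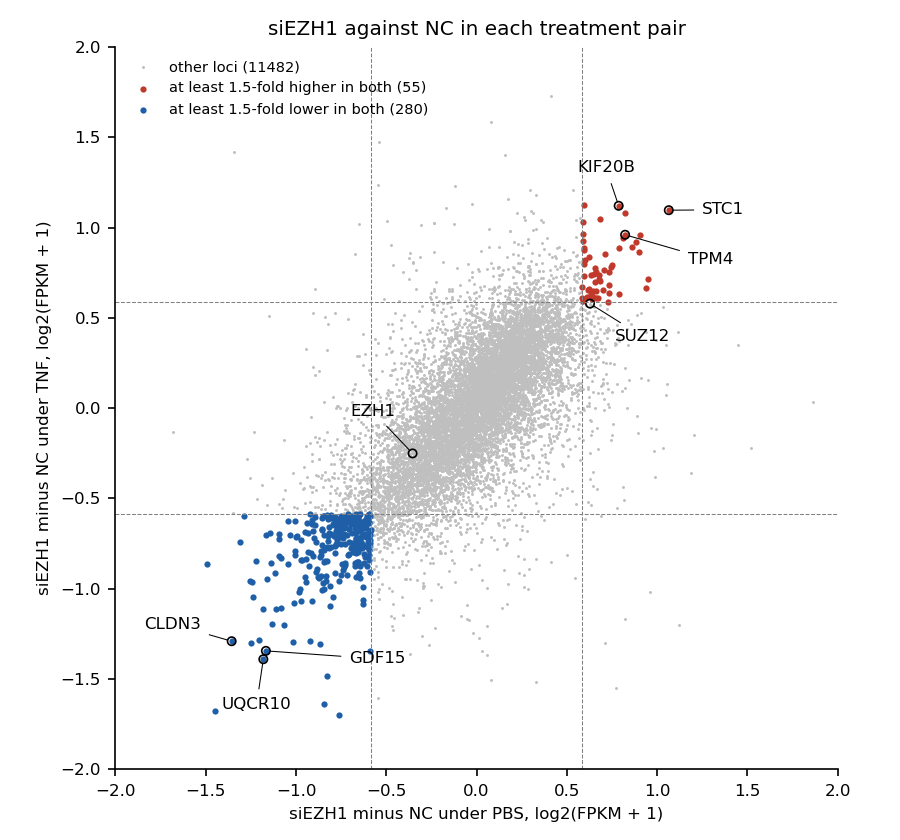
Difference of each locus, siEZH1 minus NC on the log2(FPKM + 1) scale, under PBS (horizontal) and under TNF (vertical). Blue points are the 280 loci at least 1.5-fold lower and red points the 55 at least 1.5-fold higher in both pairs, dashed lines mark 1.5-fold, and 49 loci, 1 of them coding, lie outside the axes. CLDN3, UQCR10 and GDF15 lie farthest down among the labelled genes and STC1 farthest right.

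Among the 254 coding loci (2.31% of coding loci) at least 1.5-fold lower, the first by the smaller of its differences was CLDN3, a barrier-forming claudin of tight junctions. CLDN3 measured 10.8 FPKM in NC PBS and 11.9 FPKM in NC TNF, against 3.59 FPKM in siEZH1 PBS and 4.28 FPKM in siEZH1 TNF. Its siEZH1 level was 0.334 and 0.359 of NC, with a mean difference of -1.32 ± 0.05 (SD over the 2 pairs). CLDN4, a second claudin that lies beside CLDN3 in the genome, measured 114 and 164 FPKM in NC and 61.8 and 84.9 FPKM in siEZH1. ITGB4, the integrin beta chain of hemidesmosomes, measured 36.5 and 37.5 FPKM in NC and 18.1 and 20.5 FPKM in siEZH1. Those were the 3 of 35 tight junction and adhesion loci at least 1.5-fold lower in both pairs, where 2.37% of all loci were. The list medians were -0.05 and -0.02, or -0.10 and -0.14 when centred by span. In the same list CLDN2, a pore-forming claudin, was higher at 2.83 and 1.91 FPKM in NC and 4.38 and 2.42 FPKM in siEZH1. EPCAM, an epithelial adhesion molecule, was also higher, with differences of 0.36 and 0.34. LAMB3, a laminin chain that binds the integrin containing ITGB4, measured 14.7 and 32.7 FPKM in NC and 6.94 and 15.6 FPKM in siEZH1. Its level was 0.473 and 0.477 of NC, although siEZH1 TNF lay above NC PBS.

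UQCR10, a small subunit of respiratory complex III, measured 253 and 316 FPKM in NC and 111 and 120 FPKM in siEZH1, a mean difference of -1.29 ± 0.15. NDUFA7, a complex I subunit, measured 67.4 and 75.5 FPKM in NC and 30.5 and 39.6 FPKM in siEZH1. In all, 8 of 77 respiratory chain loci were at least 1.5-fold lower in both pairs and 0 were as much higher, against 2.37% and 0.465% of all loci. The list as a whole did not share this: 29 loci were higher and 35 lower in both pairs, where 40.9% and 37.6% of all loci were. Both list medians were -0.03, the one under TNF turning to 0.02 when centred by span. At its other end NDUFA5, also of complex I, measured 17.8 and 13.2 FPKM in NC and 27.8 and 19.04 FPKM in siEZH1. The median span of the list was 10751 bases, against 30720 bases for all coding loci tested. With coding loci in 10 equal groups by span, 33 of 1097 were at least 1.5-fold lower in the group holding that median. In the group with the shortest spans it was 89 of 1098. NDUFA11, among the 8 lower respiratory chain loci, shares its values with FUT5 and cannot be separated from it. Of 77 cytoplasmic ribosomal protein loci, 51 were higher and 19 lower in both pairs, with medians of 0.12 and 0.14, or 0.26 and 0.30 when centred by span. At least 1.5-fold lower were 2 of the 77, a share near the 2.37% of all loci: RPLP1 and RPLP2, the acidic stalk proteins. RPLP1 measured 2890 and 3352 FPKM in NC and 1636 and 2011 FPKM in siEZH1, while RPL7 measured 1329 and 1080 FPKM in NC and 1791 and 1699 FPKM in siEZH1. Mitochondrial ribosomal proteins had medians of -0.03 and 0.00 (0.06 and 0.11 when centred by span), and 3 of 75 loci were at least 1.5-fold lower, near the 2.37% of all loci, MRPL36 among them with differences of -0.82 and -0.66.

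GDF15, a secreted TGF-beta relative made under cell stress, measured 101 and 205 FPKM in NC and 44.3 and 80.2 FPKM in siEZH1. Its level was 0.440 and 0.391 of NC. No siEZH1 library reached an NC library, as at 28.3% of all loci. This separation largely follows from the pair rule that chose GDF15 and is no further support. GDF15 is also a p53 target, but the 27 p53 targets tested split evenly, with 12 higher and 12 lower in both pairs. PLK3, a stress-responsive kinase on that list, was the other one past 1.5-fold lower, with differences of -0.65 and -0.85. Over all loci, 2.37% were at least 1.5-fold lower in both pairs. At any size, 40.9% of all loci were higher and 37.6% lower in both. Genes of the unfolded protein response and ATF4 pathway were lower in both pairs at 16 of 27 loci and higher at 5. Their medians were -0.17 under PBS and -0.06 under TNF, or -0.07 and -0.09 when centred by gene span. At least 1.5-fold lower in both pairs were 2 of the 27. SLC7A5, a large neutral amino acid transporter, measured 132 and 159 FPKM in NC and 78.4 and 96.04 FPKM in siEZH1. CEBPB, a transcription factor of stress and inflammation, had differences of -0.67 and -0.74.

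Apoptosis regulators of the BCL2 family were lower in both pairs at 12 of 15 loci and higher at 3, with medians of -0.27 and -0.26. Over all loci, 37.6% were lower and 40.9% higher in both pairs, and 2.37% were at least 1.5-fold lower. BAD, which promotes apoptosis by binding its antiapoptotic relatives, was the member past 1.5-fold, at 39.7 and 43.3 FPKM in NC and 18.1 and 24.1 FPKM in siEZH1. BCL2L12 followed with differences of -0.58 and -0.78. The higher members included MCL1, an antiapoptotic protein, at 51.4 and 53.4 FPKM in NC and 61.5 and 58.8 FPKM in siEZH1. SNAI1, a repressor of epithelial genes, was the 1 of 14 mesenchymal transition loci past 1.5-fold lower, at 7.74 and 7.44 FPKM in NC and 4.76 and 4.04 FPKM in siEZH1. That list was lower in both pairs at 9 loci, with medians of -0.19 and -0.26, or -0.19 and -0.12 when centred by span. Further coding loci near the head of the lower set included CHPF, a chondroitin polymerase subunit, at 113 and 139 FPKM in NC and 58.2 and 70.7 FPKM in siEZH1. IGFBP6, which binds insulin-like growth factors, measured 29.3 and 34.8 FPKM in NC and 15.0 and 13.6 FPKM in siEZH1. The ubiquitin ligase gene MIB2 had differences of -1.24 and -0.96, and DOHH, which completes hypusine synthesis on eIF5A, -0.95 and -0.94. RTEL1 shares its values with TNFRSF6B, and its locus, at -1.19 and -1.11, cannot be assigned to either gene.

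Among the 48 coding loci (0.437%) at least 1.5-fold higher, the first was STC1, a secreted glycoprotein hormone. STC1 measured 1.02 FPKM in both NC libraries, against 3.22 FPKM in siEZH1 PBS and 3.32 FPKM in siEZH1 TNF. The siEZH1 level was 3.16 and 3.25 times NC, and the mean difference was 1.08 ± 0.02 (SD over the 2 pairs). DDIT4L, a relative of the mTOR inhibitor DDIT4, measured 12.6 and 6.80 FPKM in NC and 24.4 and 14.2 FPKM in siEZH1. TPM4, an actin-binding tropomyosin, had the highest level of the first 20 loci, at 79.0 and 71.3 FPKM in NC and 141 and 140 FPKM in siEZH1. It was the 1 of 28 actin, tropomyosin and myosin loci past 1.5-fold in both pairs, where 0.465% of all loci were that much higher. In that list 14 were lower in both, against 37.6% of all loci. RGS2, a regulator of G-protein signalling, was 1.79 and 2.004 times NC, but its groups overlapped, since NC PBS (25.5 FPKM) exceeded siEZH1 TNF (23.2 FPKM). SEMA3C, a secreted semaphorin, measured 4.36 and 3.95 FPKM in NC and 8.002 and 7.56 FPKM in siEZH1. CSRP2, a LIM-domain protein, measured 33.0 and 31.0 FPKM in NC and 53.4 and 52.5 FPKM in siEZH1. The zinc finger genes ZNF530 and ZNF83, both on chromosome 19, had differences of 0.88 and 0.92 and of 0.75 and 0.78.

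The pair-rule loci other than the 2 small nucleolar RNAs all missed the limma threshold over 6 libraries: the smallest Benjamini-Hochberg adjusted p was 0.599 among the higher and 0.313 among the lower loci. CLDN3 had a limma standard error of 0.25 (adjusted p = 0.599 over 6 libraries and 0.0021 over 4). STC1 had a limma standard error of 0.20 (adjusted p = 0.599 over 6 libraries and 0.0054 over 4). Both genes head their sets by differences that agree between the pairs, and the 4-library fit draws on the same agreement. Its p-values for them are therefore no further support.

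**Figure D2:**
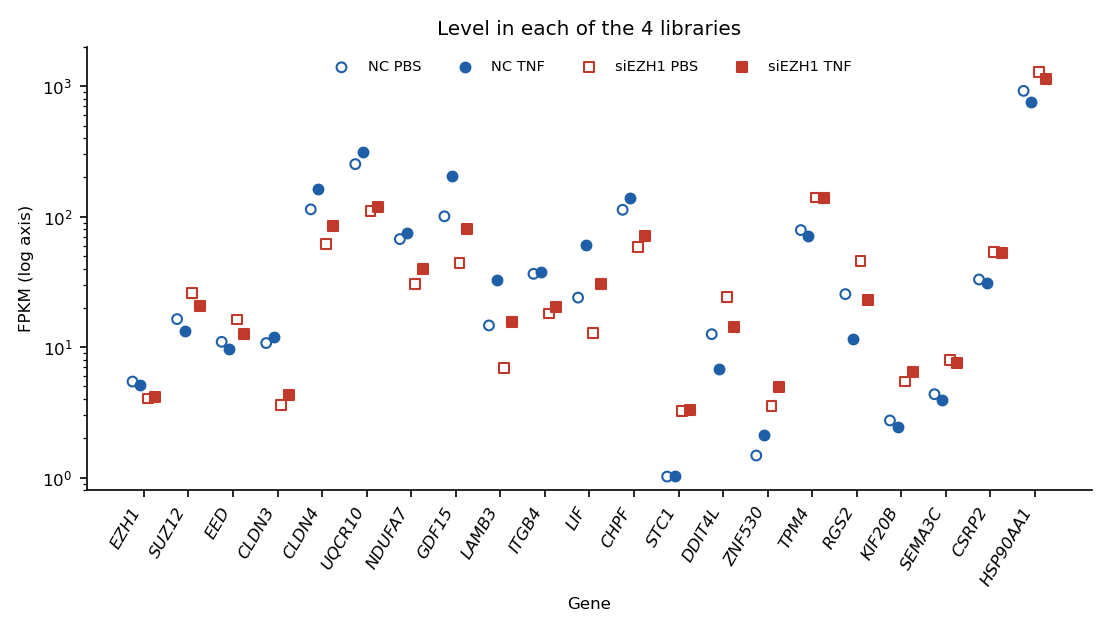
Level of 21 genes in each of the 4 libraries in FPKM (log axis), with NC as circles and siEZH1 as squares, open for PBS and filled for TNF. For CLDN3, UQCR10, GDF15 and CHPF both squares lie below both circles, for STC1, TPM4 and CSRP2 above, and for RGS2, LAMB3 and LIF the groups overlap.

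Several lists were mostly higher in siEZH1, with few or no members past 1.5-fold. Over all loci, 40.9% were higher and 37.6% lower in both pairs, and 0.465% were at least 1.5-fold higher. Mitotic genes were higher in both pairs at 34 of 46 loci and lower at 7, with medians of 0.25 and 0.31, or 0.21 and 0.20 when centred by gene span. KIF20B, a kinesin of cytokinesis, was the member past 1.5-fold in both, at 2.74 and 2.45 FPKM in NC and 5.46 and 6.49 FPKM in siEZH1. KIF18A, a kinesin that limits chromosome oscillation, measured 12.3 and 6.39 FPKM in NC and 18.4 and 11.3 FPKM in siEZH1. BIRC5 (survivin), of the chromosomal passenger complex, went the other way at 96.5 and 89.3 FPKM in NC and 62.5 and 64.7 FPKM in siEZH1. DNA replication genes were higher in both pairs at 29 of 43 loci and lower at 10, with medians of 0.15 and 0.23. POLA1, the catalytic subunit of polymerase alpha, had differences of 0.65 and 0.46, and POLD1, that of polymerase delta, -0.53 and -0.53. Cohesin subunits and large chromatin regulators were higher in both pairs at 20 of 27 loci, with medians of 0.19 and 0.20, or 0.10 and 0.12 when centred by span. SMC6, of the SMC5/6 complex, measured 5.38 and 4.38 FPKM in NC and 8.27 and 7.85 FPKM in siEZH1.

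Heat shock proteins and the chaperonin were higher in both pairs at 21 of 25 loci and lower at 2, with medians of 0.25 and 0.33. HSP90AA1, the stress-inducible HSP90, measured 922 and 764 FPKM in NC and 1292 and 1134 FPKM in siEZH1. HSPH1, an HSP110 chaperone, had differences of 0.54 and 0.53, while BAG3, a cochaperone, had -0.37 and -0.43. SR proteins and hnRNPs, which govern splicing, were higher in both pairs at 21 of 26 loci and lower at 1, with medians of 0.20 and 0.29. HNRNPA1 measured 585 and 543 FPKM in NC and 878 and 829 FPKM in siEZH1, and HNRNPH3 43.6 and 37.9 FPKM in NC and 62.3 and 54.5 FPKM in siEZH1. Sterol synthesis genes were higher in both pairs at 16 of 31 loci and lower at 13, where 40.9% and 37.6% of all loci were. SLC2A1, the glucose transporter GLUT1, was the 1 of 30 glycolysis and hypoxia loci at least 1.5-fold lower, where 2.37% of all loci were. It measured 87.5 and 80.6 FPKM in NC and 56.9 and 51.2 FPKM in siEZH1. Limma over 6 libraries called 0 members of any of the 28 lists, with 2 calls among all loci.

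**Figure D3:**
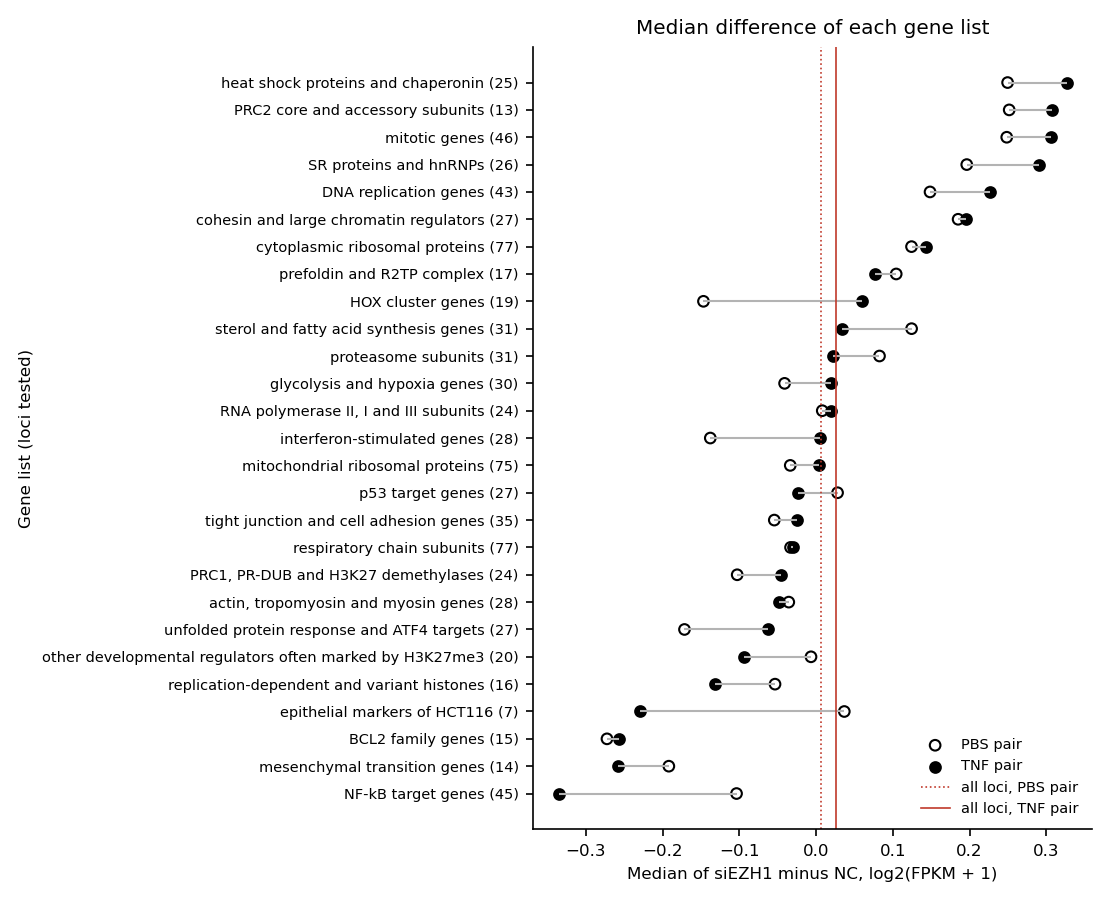
Median difference of each gene list with at least 3 loci tested, siEZH1 minus NC on the log2(FPKM + 1) scale, under PBS (open) and TNF (filled), with the number of loci in brackets and red lines at the medians over all loci. Heat shock, PRC2, mitotic and splicing lists lie highest and the NF-kB target list lowest under TNF, at -0.34.

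NF-kB target genes were lower in siEZH1 in most cases, and more of them in the TNF pair than in the PBS pair. Of 45 loci tested, 40 (88.9%) were below 0 under TNF and 30 (66.7%) under PBS, where 47.4% and 49.2% of all loci were. The median was -0.34 under TNF and -0.10 under PBS. At least 1.5-fold lower were 13 loci under TNF and 3 under PBS, against 6.0% and 5.12% of all loci. LIF, PLAU and CD82 passed in both pairs, the last named after its values were seen, where 2.37% of all loci passed. LIF, a cytokine of the interleukin 6 family, measured 24.0 FPKM in NC PBS and 60.6 FPKM in NC TNF, against 12.9 and 30.4 FPKM in siEZH1. PLAU, the urokinase protease, measured 21.6 and 215 FPKM in NC and 13.7 and 121 FPKM in siEZH1. For both genes each siEZH1 library lay below the NC library of its treatment. The chemokine gene IL8 measured 0.307 and 149 FPKM in NC and 0.447 and 96.5 FPKM in siEZH1, so it was lower in the TNF pair and not in the PBS pair. At PBS levels this low, the log2(FPKM + 1) scale understates differences. How far low levels without TNF account for the smaller PBS differences of the list was not tested. NFKBIA, the inhibitor of NF-kB, measured 26.9 and 379 FPKM in NC and 28.2 and 309 FPKM in siEZH1. TNFAIP3 (A20), a further feedback inhibitor, was nearly level between the groups at 37.0 and 35.8 FPKM under TNF. On the higher side, BIRC2, an inhibitor of apoptosis, measured 11.8 and 29.6 FPKM in NC and 14.0 and 38.3 FPKM in siEZH1, and IL32, a cytokine, 0.663 and 5.24 FPKM in NC and 0.837 and 7.94 FPKM in siEZH1. Of the NF-kB subunits, RELA had differences of -0.23 and -0.22 and NFKB1 of -0.02 and -0.11. UXT, a binding partner named in the title, was at 62.2 and 59.6 FPKM in NC and 64.9 and 77.1 FPKM in siEZH1. Whether the differences depended on treatment was not tested, because 1 library per condition leaves no residual degrees of freedom. In bulk RNA, fewer responding cells and less RNA per cell cannot be told apart.

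**Figure D4:**
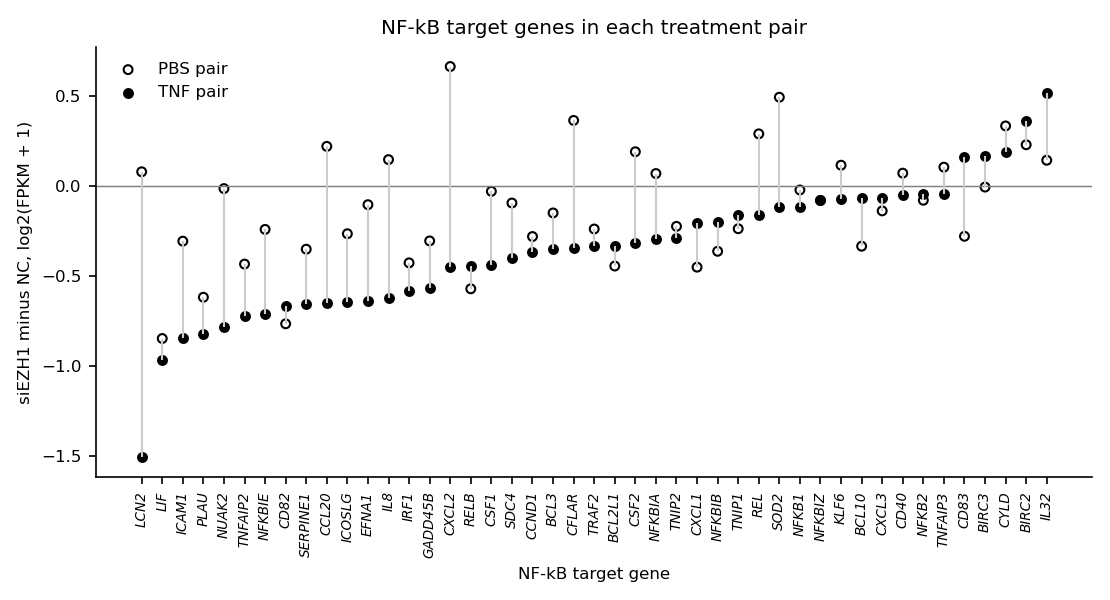
Difference of each of the 45 NF-kB target loci, siEZH1 minus NC on the log2(FPKM + 1) scale, in the PBS pair (open) and TNF pair (filled), ordered by the TNF pair. In the TNF pair 40 points lie below 0 and 5 above.

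By their medians, the lower coding loci had shorter spans and GC-richer promoters than coding loci at large. Their median gene span was 9041 bases, against 34684 bases for the higher coding loci and 30720 bases for all coding loci tested. Coding loci were split into 10 equal groups by span. In the group with the shortest spans, the median difference was -0.18 under PBS and -0.21 under TNF, and 89 of 1098 loci were at least 1.5-fold lower in both pairs and 4 higher. In the group with the longest spans it was 0.08 and 0.13, with 3 lower and 7 higher. Across 10973 coding loci, Spearman's rho between span and difference was 0.267 under PBS and 0.284 under TNF, as a description of loci that share the same 4 libraries. Mean FPKM had a rho of -0.05 and -0.06. In the 250 bases before the annotated start, median GC content was 68.8% over the 205 lower loci with a listed promoter, 63.7% over 44 higher loci and 64.9% over 9042 loci. Centring the differences within 20 bins of span left 217 loci lower and 77 higher, and the NF-kB target medians were then -0.08 and -0.28. The part of span or GC content in the differences of single genes was not tested.

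Promoter windows are printed for the leading 2 lower and 2 higher coding loci by the order above that have exactly 1 listed window, to show how far single promoters depart from these medians. The sequences are the 250 bases before the start from RefSeq on GRCh38.p14, in the direction of transcription, with each CG dinucleotide in capitals. The letters CG, which read the same on both strands, occur in 93.9% of the 35116 windows of this length. CLDN3 (chr7:73770271-73770520, minus strand) has 19 CG and 71.6% GC, UQCR10 (chr22:29767119-29767368, plus strand) 5 and 45.2%, DDIT4L (chr4:100190469-100190718, minus strand) 13 and 65.2%, and ZNF530 (chr19:57599635-57599884, plus strand) 8 and 58.4%.
CLDN3: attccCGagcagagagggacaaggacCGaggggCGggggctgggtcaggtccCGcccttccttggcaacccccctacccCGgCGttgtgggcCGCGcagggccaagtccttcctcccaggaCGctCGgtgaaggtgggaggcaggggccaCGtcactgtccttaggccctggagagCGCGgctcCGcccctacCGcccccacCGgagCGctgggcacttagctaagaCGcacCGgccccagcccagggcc
UQCR10: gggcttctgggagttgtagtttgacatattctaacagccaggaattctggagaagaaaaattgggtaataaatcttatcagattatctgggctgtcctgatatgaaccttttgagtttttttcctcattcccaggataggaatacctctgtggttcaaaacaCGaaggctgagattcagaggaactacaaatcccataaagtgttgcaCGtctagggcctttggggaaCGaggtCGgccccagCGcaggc
DDIT4L: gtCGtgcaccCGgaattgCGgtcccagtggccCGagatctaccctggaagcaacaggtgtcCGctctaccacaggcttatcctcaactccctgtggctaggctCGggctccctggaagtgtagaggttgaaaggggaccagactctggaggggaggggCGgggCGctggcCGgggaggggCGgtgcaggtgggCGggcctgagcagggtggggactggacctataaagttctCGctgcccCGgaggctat
ZNF530: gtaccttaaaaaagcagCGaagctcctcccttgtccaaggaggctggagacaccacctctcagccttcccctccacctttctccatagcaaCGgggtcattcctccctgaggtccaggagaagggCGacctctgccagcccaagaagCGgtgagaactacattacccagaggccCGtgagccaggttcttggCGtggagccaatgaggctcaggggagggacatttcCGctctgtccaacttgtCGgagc
The UQCR10 window thus lies far below the median GC content of the lower loci, and both higher genes lie within a few percentage points of, or under, the median of all coding loci.

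By chromosome, the lower coding loci gathered on 19, 22 and 11. On chromosome 19, 45 of 787 coding loci (5.72%) were at least 1.5-fold lower in both pairs, and the median difference was -0.26 under PBS and -0.27 under TNF. On chromosome 22 it was 18 of 274 (6.57%), with medians of -0.21 and -0.20, and on chromosome 11 it was 36 of 651 (5.53%), against 2.31% of all coding loci. Chromosome 18 lay at the other end, with 0 of 151 lower and medians of 0.14 and 0.18. Chromosome 19 also holds a large share of the zinc finger (ZNF) genes, which encode DNA-binding repressors, and these lay on the other side of 0 from the rest of the chromosome. Of 115 ZNF loci on chromosome 19, 73 were higher and 20 lower in both pairs, where 41.8% of all coding loci were higher and 38.0% lower, with medians of 0.18 and 0.24. Of the 672 other coding loci there, 57 were higher and 521 lower, with medians of -0.30 and -0.32. Their median spans were 23145 and 14285 bases. ZNF loci on other chromosomes had medians of 0.09 and 0.17.

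**Figure D5:**
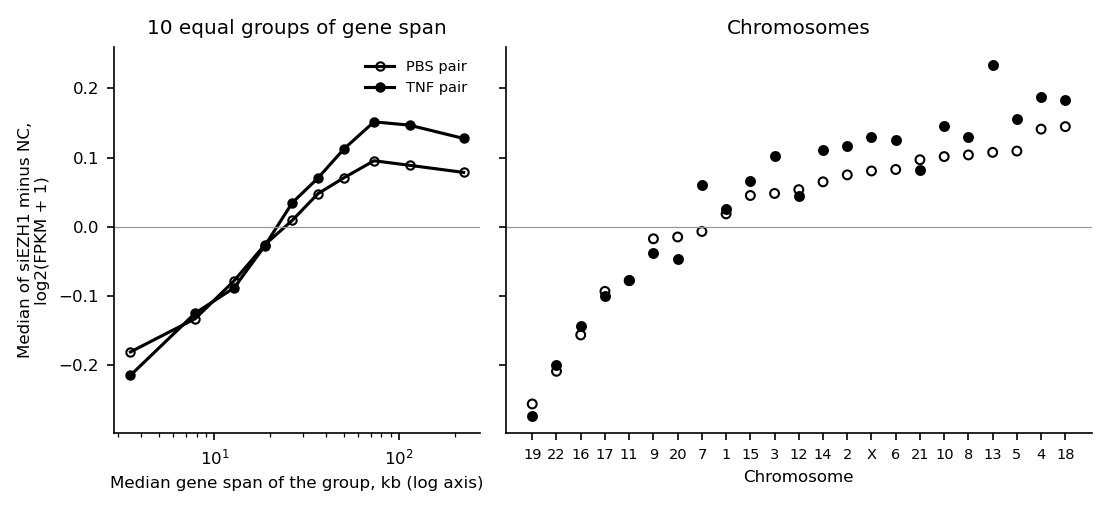
Median difference of coding loci, siEZH1 minus NC on the log2(FPKM + 1) scale, in 10 equal groups of gene span (left, kilobases on a log axis) and by chromosome in the order of the PBS medians (right), with PBS open and TNF filled. The group of shortest spans lies at -0.18 and -0.21, and chromosome 19 at -0.26 and -0.27.

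Small nucleolar RNAs (snoRNAs), which guide RNA modification, gave the extreme values. SNORA31 measured 22.9 FPKM in NC PBS and 27.2 FPKM in NC TNF and was listed at 0 in both siEZH1 libraries and both siUXT libraries (limma over 6 libraries, Benjamini-Hochberg adjusted p = 0.0021). SNORD15A was at 9.67 and 11.3 FPKM in NC and was also listed at 0 in those 4 libraries (limma, adjusted p = 0.0063). Both loci passed the 1 FPKM filter through the NC libraries alone. Their repeated 0 values keep the residual small, so these p-values are no support for a difference. SNORA27 went the opposite way, listed at 0 in both NC libraries and at 32.6 and 43.2 FPKM in siEZH1, without passing (limma, adjusted p = 0.599). Of 40 snoRNA loci tested, 17 to 24 were listed at 0 in each library. At least 1.5-fold lower in both pairs were 7 and higher 1, against 2.37% and 0.465% of all loci. Loci at 0 in both libraries of a group passed the filter through the other group alone, which partly makes these counts. SNORA52 shows how these values scatter within a group, at 18.2 FPKM in NC PBS and 64.5 FPKM in NC TNF. A value of 0 at such short RNAs can be a failed estimate, so neither a fold nor a fall in level is read from it. Among loci under 0.5 FPKM in both NC libraries, 6 reached 1 FPKM in both siEZH1 libraries, the coding genes ANXA10 and ERICH2 among them. ANXA10, a calcium-binding annexin, measured 0.302 and 0.255 FPKM in NC and 1.87 and 1.40 FPKM in siEZH1. In the reverse direction there were 8 loci, of which 1 was coding, the histone gene HIST1H2AD at 2.12 and 1.72 FPKM in NC and 0.148 and 0 FPKM in siEZH1.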

How the data were processed

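Poly(A)-selected RNA from HCT116 cells was sequenced, and each library came with the authors' deposited table of FPKM for each symbol. FastQC, cutadapt, TopHat2, Bowtie and SICER were used with hg19, per the submitters' processing notes; versions, the program that made the FPKM values, its strand setting and its annotation were not given in the sources used here. The 28502 symbols were matched to the RefSeq gene table (GRCh38.p14, 22789 matched) for names, gene types, chromosomes and spans; promoters come from RefSeq on the same build. Symbols whose values were the same in each of the 6 libraries were merged, and 382 tested loci hold several coding genes whose values cannot be separated; without a strand setting, antisense and overlapping genes are uncertain too.

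Differences of log2(FPKM + 1) were taken per treatment pair, and loci were called where both pairs were at least 1.5-fold apart the same way. The test was limma 3.58.1 in R 4.3.3 (lmFit, eBayes with trend; transfection plus treatment, 6 libraries, Benjamini-Hochberg threshold 0.05, two-sided). The fit was also run on simulated data with additive effects and no siUXT effect. That run checks the code and cannot show how the fit handles departures from additive effects. With 1 library per condition, the limma p-values rest on departures from additive effects of transfection and treatment, those of siUXT included. They do not measure variation between replicates, and a gene whose response to TNF differs between transfections counts as variable. Nothing in the labels shows separate cultures. Named genes were the first 20 coding and 5 other loci in each direction by the smaller of their 2 absolute differences, the 2 highest and 2 lowest members of each of 28 lists, loci crossing from under 0.5 to at least 1 FPKM, and 18 genes always given. Members, lists and rules were chosen with earlier results of these data known. The alternatives were other pseudocounts and filters, size factors, centring in 20 bins of gene span, single pairs, a 2-fold rule, coding loci alone, 4 libraries, and leaving out each library. Other steps used Python 3.11.15 with pandas 2.3.3, numpy 2.4.6 and matplotlib 3.10.9.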

Additional observations from a re-analysis of the deposited data

Results flagged for a closer look

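Each result here had opposite signs in the PBS and TNF pairs; the difference between treatments (TNF minus PBS, log2) was not tested, since each condition had 1 library. WAPAL, which releases cohesin from chromatin, stood out at -2.32: it measured 13.2 and 39.0 FPKM in NC PBS and TNF and 23.2 and 12.6 FPKM in siEZH1, so NC TNF was the high library. Among NF-kB targets, IL8 differed by -0.77 (0.15 under PBS and -0.62 under TNF), NFKBIA by -0.36 (0.07 and -0.29) and TNFAIP3 by -0.15 (0.11 and -0.04). IL8 was under 1 FPKM in both PBS libraries, where the log2(FPKM + 1) scale understates differences. ACTA2, smooth muscle actin, differed by 0.42 at levels of 1.96 to 2.57 FPKM, and TRA2A, a splicing factor, by -0.096. List medians differed by 0.21 for HOX cluster genes, 0.037 for mitochondrial ribosomal proteins, -0.051 for p53 targets, 0.14 for interferon-stimulated genes, 0.061 for glycolysis and hypoxia genes and -0.27 for the 7 epithelial marker loci, where KRT8 was lower in both pairs (-0.35 and -0.45) and EPCAM higher (0.36 and 0.34).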

How the results depend on the processing

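Loci at least 1.5-fold higher and lower in both pairs numbered 55 and 280. They numbered 143 and 430 with a pseudocount of 0.1 and 87 and 351 with 0.5, 2 and 19 at 2-fold, 249 and 605 in the PBS pair alone, and 434 and 709 in the TNF pair alone. They were 61 and 270 with size factors, 77 and 217 centred by gene span and, in an alternative chosen after seeing the data, 42 and 269 among coding loci centred by promoter GC. Limma called 0 higher and 2 lower over 6 libraries, 0 lower at a mean of at least 5 FPKM (636 at an unadjusted p of 0.05), and 1604 and 1882 over the 4 libraries alone. Leaving out 1 library gave 13 to 1602 higher and 21 to 1907 lower; the 2 highest counts in each direction came without a siUXT library, and a lone sample is then assumed to vary like the others. The EZH1 difference lay between -0.36 and -0.26 over the limma settings, was -0.40 as a mean of the pairs centred by span, -0.35 in the PBS pair and -0.25 in the TNF pair alone, and has no value at a mean of at least 5 FPKM, since it lies below that filter. With 2 FPKM required on the higher side, 1 locus came on and 3 went off, instead of 6 and 8. Span centring kept the sign of 160 of 164 named genes and 45 of 54 list medians; ACTA2, HSPB1, PSMB6 and NFKBIA changed sign. No paired analysis by replicate number was possible because the labels give none; the pairs here are treatments. Low FPKM limits what can be seen at weak genes.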

Other observations

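Histone genes, which the report leaves aside, held no common direction: of 16 loci tested, 5 were higher and 6 lower in both pairs. Their medians were -0.05 under PBS and -0.13 under TNF (0.09 and 0.02 when centred by gene span). For this list and those below, 40.9% of all loci were higher and 37.6% lower in both pairs. H3F3A, which encodes the variant histone H3.3, measured 339 and 315 FPKM in NC and 474 and 432 FPKM in siEZH1. H1FX, a linker histone, measured 63.1 and 78.5 FPKM in NC and 41.5 and 51.9 FPKM in siEZH1. Proteasome subunits were higher in both pairs at 17 of 31 loci and lower at 11, with PSMA4 at 161 and 144 FPKM in NC and 218 and 207 FPKM in siEZH1. Of the prefoldin and R2TP complex, to which UXT is related, 10 of 17 loci were higher and 6 lower in both pairs. URI1, a direct partner of UXT in that complex, measured 13.2 and 10.4 FPKM in NC and 18.1 and 16.03 FPKM in siEZH1. RNA polymerase subunits were higher in both pairs at 11 of 24 loci and lower at 10, with POLR2L at 132 and 174 FPKM in NC and 102 and 96.5 FPKM in siEZH1.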
